A study of Rattus norvegicus with 20 samples.

Results

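The genes followed here encode the contractile machinery of striated muscle: the myosin heavy and light chains, the troponins, the tropomyosins, the myosin-binding proteins C, the alpha-actinins, skeletal actin, titin, nebulin and desmin, together with muscle creatine kinase, myoglobin, parvalbumin and the fast calcium pump. They were chosen by gene symbol (symbols beginning with Myh, Myl, Tnnc, Tnni, Tnnt, Tpm, Mybpc or Actn with a number, leaving out Mylk and Mylip, plus Acta1, Ckm, Des, Mb, Ttn, Neb, Pvalb and Atp2a1) and not by any measured value. The rule took 84 probe sets of 50 genes out of 31042 probe sets and 14217 named genes on the array, of which 72 probe sets of 44 genes passed the filter on low signals and were tested, out of 18625 tested in all. Of the 84, 48 probe sets of 35 genes (40 tested) belong to genes used mainly by striated muscle. The other 36 probe sets (32 tested) belong to tropomyosins, which many cells make, to myosins and actinins of smooth muscle and nonmuscle cells, and to Tpmt and Tnni3k, which matched only by the first letters of their symbols.

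Gene expression was measured in RNA from the proximal femur of rats aged 4 weeks, with 5 arrays in each of 4 strains and 1 animal per array. NP (alcohol-nonpreferring) and P (alcohol-preferring) are inbred strains, and the 2 reciprocal congenic strains carry a region of chromosome 4 that holds a quantitative trait locus (QTL) for alcohol preference: NP.P rats have the P segment on the NP background, and P.NP rats have the NP segment on the P background. Each congenic strain is 1 line, so the transferred segment cannot be told apart from anything else that was fixed in that line. The labels say that whole femora were harvested, and the study's methods say that they were frozen at once in liquid nitrogen. The study's text calls its RNA whole-femur RNA and does not name the proximal part for the arrays. The study's text says that its rats were male. Whether muscle was cleaned from these femora is not given in the sources used here. Signals are the deposited MAS5 values, a linear fluorescence scale on which each probe set can be compared between arrays but not with another probe set. Differences are on the log2 scale, and adjusted p values come from limma with Benjamini-Hochberg adjustment over all 18625 probe sets, with a threshold of 0.1.

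In a sarcomere, the repeating unit of striated muscle, filaments of myosin pull on filaments of actin. Calcium released into the cell binds the troponin complex, which shifts tropomyosin along the actin filament and uncovers the sites that myosin heads bind. Fast-twitch and slow-twitch fibres build the same machine from different genes: fast fibres use Myh1, Myh2 and Myh4 with Tnni2, Tnnt3 and Tnnc2, whereas slow fibres use Myh7 with Tnni1, Tnnt1 and Tnnc1, and the heart shares several of the slow genes. Bone, cartilage and marrow cells do not build sarcomeres, and the muscles of the hip and thigh insert on the proximal femur. In whole tissue RNA, fewer muscle cells and less of these RNAs per cell cannot be told apart.

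Promoters of these genes are known for CArG boxes, bound by serum response factor, and for sites of MEF2, a factor that works with the myogenic factors. RefSeq promoter windows on the GRCr8 build, from 250 bases before to 50 bases after the start of the gene, were found for 44 of the 50 genes (49 windows). A CArG box was in 3 of the 49 windows and in 1.64% of the 33469 windows of all genes, and a MEF2 site was in 7 of the 49 and in 3.29% of all windows (both strands searched). CANNTG, the core of the E box bound by MyoD and its relatives, was in 40 of the 49 windows against 72.1% of all, and TATAAA was in 12 against 14.2% of all. The 3 windows with a CArG box are shown, 5′ to 3′ on the strand of the gene, because they belong to a thin filament gene, a fast myosin and a slow light chain described below. Capitals mark the CArG boxes, which lie 94 bases before the start in Acta1 (chr19:68784145-68784444, minus strand), 118 in Myh4 (chr10:52421898-52422197, plus strand) and 97 in Myl3 (chr8:119616844-119617143, plus strand), and in Myh4 also a MEF2 site 196 bases before the start. A match of letters is a description and was not tested as a binding site.
Acta1: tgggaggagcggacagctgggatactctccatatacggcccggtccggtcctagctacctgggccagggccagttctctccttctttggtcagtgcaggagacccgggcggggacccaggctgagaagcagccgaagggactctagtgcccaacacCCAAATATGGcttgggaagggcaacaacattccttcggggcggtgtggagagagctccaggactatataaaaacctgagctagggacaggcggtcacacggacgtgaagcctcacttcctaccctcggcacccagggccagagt
Myh4: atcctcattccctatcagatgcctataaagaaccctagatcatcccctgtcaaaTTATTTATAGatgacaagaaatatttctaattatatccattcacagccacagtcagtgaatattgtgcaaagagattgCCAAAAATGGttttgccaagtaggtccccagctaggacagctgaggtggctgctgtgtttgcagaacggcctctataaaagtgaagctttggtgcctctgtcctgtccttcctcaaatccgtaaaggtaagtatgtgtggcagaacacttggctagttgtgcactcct
Myl3: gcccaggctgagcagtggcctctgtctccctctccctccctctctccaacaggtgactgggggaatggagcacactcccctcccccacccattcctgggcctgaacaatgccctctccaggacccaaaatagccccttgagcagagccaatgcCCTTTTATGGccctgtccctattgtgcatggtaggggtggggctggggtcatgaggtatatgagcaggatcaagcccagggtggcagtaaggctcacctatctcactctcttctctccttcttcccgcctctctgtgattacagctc

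Muscle and bone genes were both detected in the femur RNA of every rat. Ckm ranged from 39696 to 70740 over the 20 arrays. Bone genes were also detected on every array: Col1a1, the main collagen of bone, ranged from 60077 to 91270, osteocalcin (Bglap) from 49414 to 68534 and bone sialoprotein (Ibsp) from 23315 to 39672. Of the 12 member probe sets below the filter on low signals, 7 belong to 6 genes with no probe set above it, namely Myh6 (2 probe sets), Myh8, Myh13, Myl7, Tnni3 and Tnni3k. Among them Myh6, Myl7 and Tnni3 are used mainly by the heart. Their signals stayed between 11.7 and 218 for the brighter Myh6 probe set, between 5.28 and 102 for Myl7 and between 34.3 and 145 for Tnni3. Tnnt2 and Mybpc3, also used mainly by the heart, each had a probe set above the filter, with signals from 40 to 524 for Tnnt2 and from 221 to 592 for Mybpc3. The perinatal myosin Myh8 gave 118, 45.8, 181, 96 and 69.2 in NP rats, 142, 223, 243, 270 and 189 in NP.P rats, 109, 179, 156, 190 and 141 in P.NP rats and 37, 221, 100, 156 and 36.4 in P rats, with no strain apart from the others. The other 5 probe sets below the filter were 1 each of Myh11, Neb, Tnnt2, Tpm1 and Tpm3.

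Neither skeletal actin nor the genes of the muscle cell's energy and calcium handling passed the test between strains. Acta1, skeletal muscle actin, gave signals of 57362, 84484, 77896, 72947 and 76088 in NP rats, 70243, 68361, 78425, 72959 and 81293 in NP.P rats, 78473, 73823, 68179, 66873 and 64181 in P.NP rats and 61375, 66576, 76991, 75532 and 71284 in P rats (in the order of replicates 1 to 5, as below). The lowest and the highest of the 20 arrays were both in NP rats (replicates 1 and 2), and the 4 strains overlapped. Mean signals ± SD (n = 5) were 73755 ± 10088 (NP), 74256 ± 5464 (NP.P), 70306 ± 5764 (P.NP) and 70352 ± 6454 (P), and the F test of limma over the 4 strains did not pass (adjusted p = 0.861).

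Ckm, muscle creatine kinase, which buffers ATP in working fibres, gave 43188, 70740, 52664, 47640 and 39696 in NP rats, 49521, 50904, 64825, 58733 and 52486 in NP.P rats, 52401, 63466, 55030, 46575 and 46983 in P.NP rats and 45468, 61253, 54211, 56665 and 52351 in P rats. NP replicate 2 was the highest of all arrays and NP replicate 5 the lowest, and the strains overlapped. The P minus NP difference was 0.11 ± 0.13 (SE), adjusted p = 0.734, by limma. Atp2a1, the calcium pump of the fast sarcoplasmic reticulum, gave 34652, 56918, 35723, 36073 and 27432 in NP rats, 37526, 39164, 50333, 45735 and 40533 in NP.P rats, 43439, 50384, 45822, 38877 and 39349 in P.NP rats and 33017, 50748, 40594, 44474 and 37990 in P rats. Its NP arrays again held both ends.

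Pvalb, the calcium buffer of fast fibres, gave 34252, 54671, 38447, 35443 and 22802 in NP rats, 37359, 40390, 48417, 45016 and 42823 in NP.P rats, 40605, 49827, 43406, 34250 and 39654 in P.NP rats and 28884, 43858, 40284, 42119 and 36590 in P rats. Mb, myoglobin, the oxygen store of oxidative fibres, gave 18104, 28324, 14762, 10095 and 8962 in NP rats, 11688, 12388, 15061, 16461 and 9778 in NP.P rats, 15941, 22603, 19455, 15643 and 11714 in P.NP rats and 12700, 23339, 16571, 17766 and 11996 in P rats. In all 4 of these genes NP replicate 2 was the highest and NP replicate 5 the lowest array, and no F test passed (adjusted p 0.64 for Pvalb, 0.663 for Atp2a1, 0.697 for Mb and 0.836 for Ckm, limma).

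Of the scaffold of the sarcomere, titin and desmin did not pass either. Titin (Ttn), the spring that spans from Z disc to M line, gave 19032, 28769, 17707, 16490 and 12451 in NP rats, 19917, 22231, 29349, 29736 and 22237 in NP.P rats, 23149, 28590, 28985, 22117 and 23873 in P.NP rats and 16862, 29930, 25231, 25471 and 22454 in P rats. Of the NP arrays 4 lay below all P.NP arrays, the strains overlapped, and the F test adjusted p was 0.241 (limma). Desmin (Des), the intermediate filament that ties Z discs together, had signals of 7648, 11746, 5594, 4758 and 3845 in NP rats, 6621, 7126, 9541, 9890 and 5917 in NP.P rats, 8098, 12486, 9586, 7771 and 9160 in P.NP rats and 6363, 13122, 9788, 8690 and 8117 in P rats. All P.NP values lay within the range of the P rats, and both overlapped NP. Its P minus NP difference was 0.53 ± 0.25 (SE), adjusted p = 0.31, and its F test adjusted p was 0.305 (limma).

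**Figure D1:**
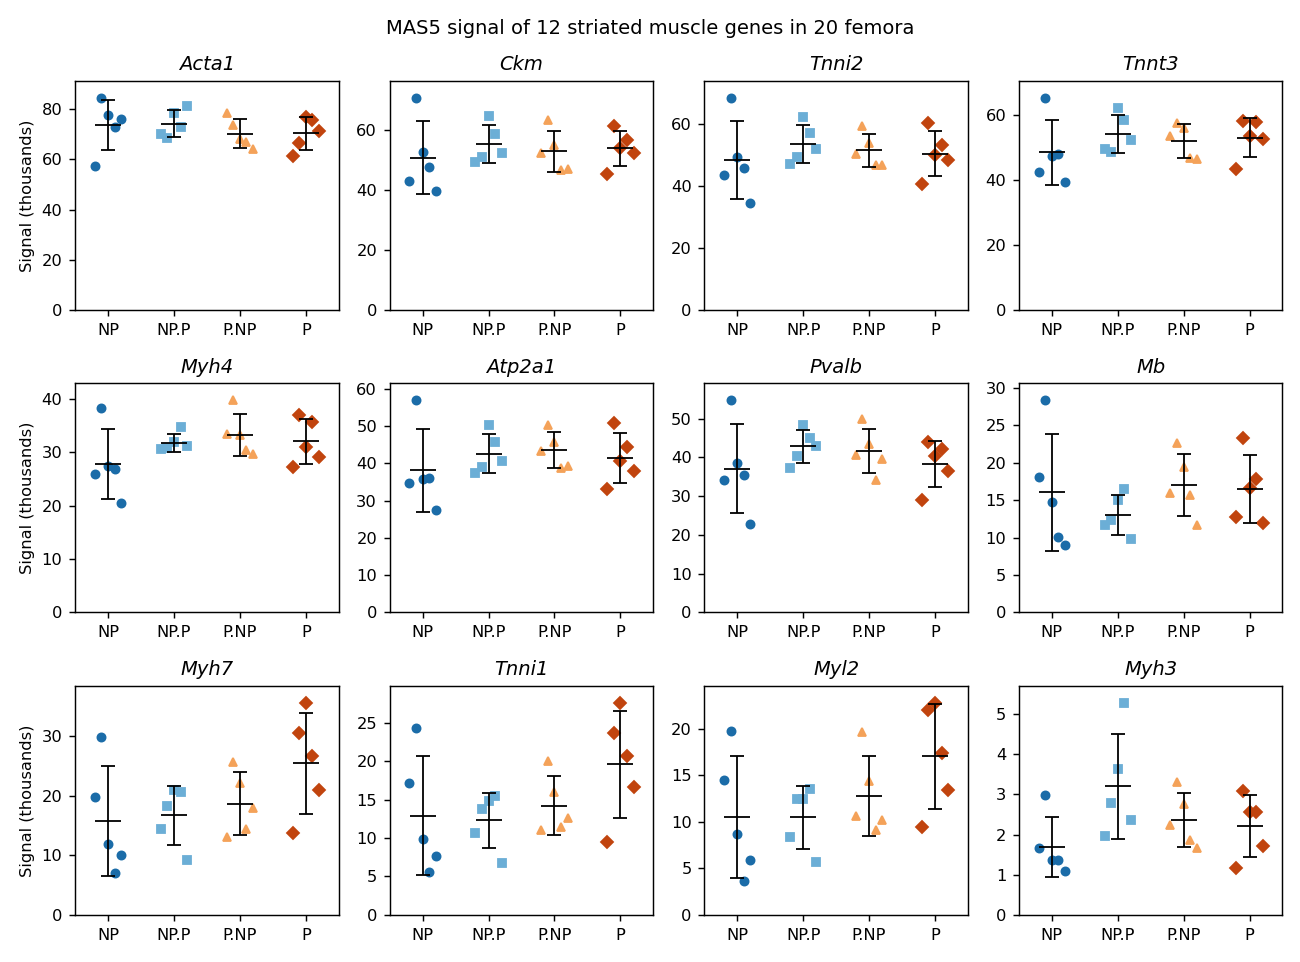
MAS5 signal (divided by 1000, linear scale from 0) of 12 muscle genes by strain; each point is 1 array, and the bar is the mean ± SD of 5 arrays. Acta1 and the fast genes overlapped between strains, and the slow genes Myh7, Tnni1 and Myl2 spread more within each strain, with NP replicates 4 and 5 low and NP replicate 2 high.

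The fast skeletal class held 16 tested probe sets of 10 genes. Tnni2, the fast inhibitory troponin, gave 43642, 68315, 49236, 45800 and 34466 in NP rats, 46907, 49217, 62214, 56933 and 51898 in NP.P rats, 50318, 59281, 53802, 46722 and 46881 in P.NP rats and 40451, 60115, 49839, 53156 and 48451 in P rats. NP rats held both ends of the range, and the other 3 strains lay inside it (F test adjusted p = 0.794, limma). Tnnt3, the fast tropomyosin-binding troponin, gave 42312, 65174, 47329, 48087 and 39403 in NP rats, 49595, 48514, 62089, 58542 and 52397 in NP.P rats, 53503, 57431, 55879, 46737 and 46354 in P.NP rats and 43212, 57992, 53619, 57678 and 52436 in P rats. Its strains overlapped in the same way (F test adjusted p = 0.681, limma).

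Myh4, the myosin of the fastest fibres (type IIb), gave 25892, 38386, 27462, 26981 and 20467 in NP rats, 30611, 30880, 31897, 34729 and 31150 in NP.P rats, 33463, 39757, 33200, 30465 and 29765 in P.NP rats and 27323, 37066, 31092, 35674 and 29148 in P rats. Of the NP arrays 4 lay below every NP.P and P.NP array, and NP replicate 2 lay above all NP.P arrays. The F test did not pass (adjusted p = 0.37, limma). Myh2, the myosin of fast oxidative fibres (type IIa), gave 26806, 36656, 26349, 20715 and 20342 in NP rats, 29056, 32220, 35055, 42107 and 26585 in NP.P rats, 33937, 39076, 35285, 27753 and 26314 in P.NP rats and 24008, 45773, 33543, 36918 and 27683 in P rats. The strains overlapped, and the P minus NP difference was 0.36 ± 0.18 (SE), adjusted p = 0.353 (limma). Over the fast class the P minus NP differences had a median of 0.16 against 0.0037 over all probe sets tested, and none of the 16 passed.

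The slow and cardiac class held 12 tested probe sets of 9 genes and varied widely between animals. Myh7, the slow myosin heavy chain, gave 19769, 29888, 11942, 7094 and 10151 in NP rats, 14487, 18315, 20933, 20680 and 9246 in NP.P rats, 13061, 25780, 22151, 14418 and 18044 in P.NP rats and 13795, 30512, 35627, 26638 and 20947 in P rats. The NP rats ran from the lowest array of all to one of the highest, P replicate 3 was the highest, and P replicates 2 to 5 lay above all NP arrays except replicate 2. Means ± SD were 15769 ± 9176 (NP), 16732 ± 4920 (NP.P), 18691 ± 5306 (P.NP) and 25504 ± 8466 (P), with n = 5 each. The P minus NP difference of Myh7 was 0.81 ± 0.34 (SE), adjusted p = 0.249 (limma), which did not pass.

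Tnni1, the slow inhibitory troponin, gave 17192, 24310, 9829, 5521 and 7616 in NP rats, 10688, 13722, 14867, 15429 and 6767 in NP.P rats, 11066, 20056, 15957, 11407 and 12569 in P.NP rats and 9489, 23684, 27570, 20661 and 16615 in P rats. Myl2, the slow regulatory light chain, gave 14456, 19768, 8744, 3693 and 5877 in NP rats, 8350, 12407, 12454, 13571 and 5650 in NP.P rats, 10652, 19608, 14378, 9141 and 10190 in P.NP rats and 9479, 22033, 22778, 17418 and 13413 in P rats. Tnnt1, the slow tropomyosin-binding troponin, gave 6067, 8793, 2880, 1889 and 2101 in NP rats, 3985, 5781, 5593, 6289 and 2420 in NP.P rats, 3513, 6721, 5656, 4160 and 4280 in P.NP rats and 3853, 8549, 9302, 6883 and 5187 in P rats. All 3 repeated the ends seen for Myh7, with NP replicate 4 lowest and P replicate 3 highest, and their strains overlapped. P minus NP differences were 0.72 ± 0.36 (SE), adjusted p = 0.335 for Tnni1, 0.87 ± 0.38 (SE), adjusted p = 0.269 for Myl2 and 0.83 ± 0.38 (SE), adjusted p = 0.289 for Tnnt1 (limma). Myl3, the slow essential light chain whose promoter window is shown above, gave 14548, 20029, 10357, 5411 and 6881 in NP rats, 10171, 12600, 13845, 16828 and 7780 in NP.P rats, 9129, 15549, 13459, 9278 and 9858 in P.NP rats and 8001, 20352, 20936, 15685 and 13902 in P rats. Its strains overlapped, and its P minus NP difference was 0.55 ± 0.32 (SE), adjusted p = 0.438 (limma). All 12 slow probe sets were higher on average in P than in NP rats, with a median difference of 0.79, and 6 had an unadjusted p under 0.05 against 16% of all probe sets. None of the 12 passed after adjustment in any of the comparisons, and the probe sets share the same 20 arrays, so their signs are not independent.

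The developmental class has 2 tested probe sets. Myh3, the embryonic myosin heavy chain, gave 1654, 2989, 1364, 1357 and 1089 in NP rats, 1954, 2781, 3623, 5280 and 2356 in NP.P rats, 2234, 3312, 2751, 1858 and 1667 in P.NP rats and 1157, 3087, 2558, 2571 and 1705 in P rats. Every NP.P array lay above all NP arrays but NP replicate 2, and the 2 strains overlapped. The NP.P minus NP difference of Myh3 was 0.92 ± 0.31 (SE), adjusted p = 0.169 (limma), which did not pass. Myl4, the other tested gene of the class, had a NP.P minus NP difference of 0.11 and a P minus NP difference of −0.015, and neither was called.

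Within each probe set, the ratio of the highest to the lowest of the 20 signals had a median of 1.94 in the fast class, 5.01 in the slow class, 2.89 in the scaffold class and 2.24 in the sarcoplasm class. Over all probe sets tested the median was 1.81, and for the myosins and actinins of smooth muscle and nonmuscle cells it was 1.46. Signal level also differed between probe sets. The mean over the 20 arrays was 51914 for Tnnt3 and 2768 for Myh1 at 1377114_at in the fast class. In the slow class it was 19174 for Myh7 and 5195 for Tnnt1. The part of signal level in these ratios was not tested. In NP rats alone the slow class had a median ratio of 4.31, against 2.22 (NP.P), 1.94 (P.NP) and 2.53 (P). The same arrays stood at the ends across genes. NP replicate 2 was the highest array for 11 of the 16 fast probe sets and NP replicate 5 the lowest for 8. NP replicate 4 was the lowest for 9 of the 12 slow probe sets and P replicate 3 the highest for 8.

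The mean log2 deviation from each gene's own mean summarised each array. In NP replicate 2 it was 0.38 for the 10 fast genes and 0.60 for the 9 slow genes, and in P replicate 2 it was 0.29 and 0.56. In NP replicate 4 it was −0.21 for the fast and −1.05 for the slow genes, and in NP replicate 5 it was −0.48 and −0.77. P replicate 3 was near the mean for the fast genes (0.04) and the highest for the slow genes (0.77). Summed over the 30 striated genes at their brightest probe set, signals ranged from 580273 to 1072790 (NP), 739739 to 916538 (NP.P), 722149 to 965033 (P.NP) and 650186 to 980838 (P).

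**Figure D2:**
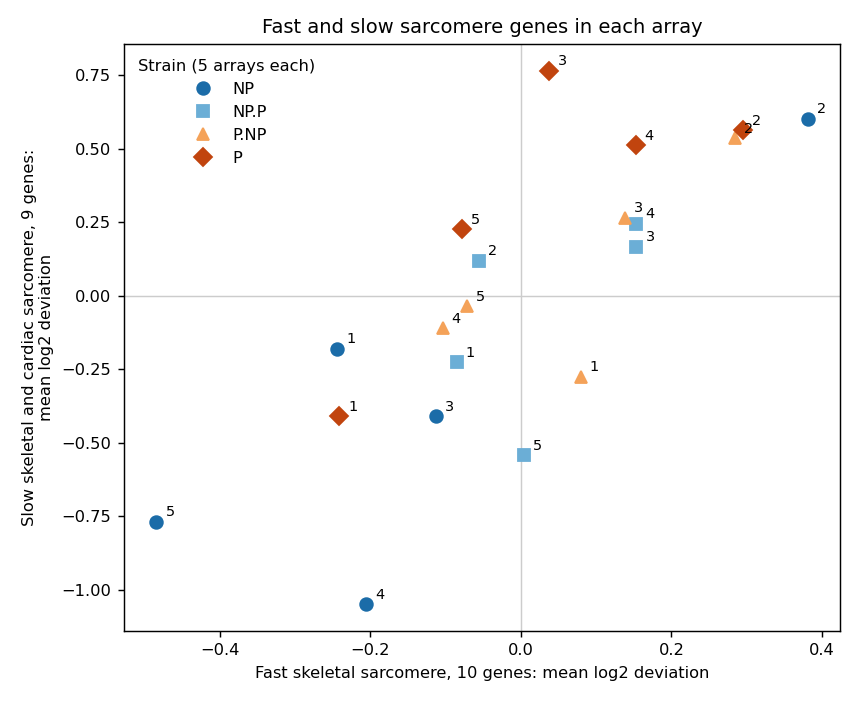
Mean log2 deviation of 10 fast genes (x axis) and of 9 slow and cardiac genes (y axis) in each of the 20 arrays, coloured by strain and numbered by replicate. NP replicate 2 lies at the upper right (0.38, 0.60), NP replicate 5 at the lower left (−0.48, −0.77), and NP replicate 4 is the lowest on the y axis (−1.05).

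Other tissues also differed between these arrays. For 8 measured cartilage genes the mean log2 deviation was −1.68 in P replicate 2, the lowest of all arrays, −0.59 in NP replicate 2 and −0.48 in P.NP replicate 2, and −0.03 or higher in each NP.P array. Their summed signal ranged from 102428 to 150036 (NP), 123118 to 152196 (NP.P), 101797 to 136156 (P.NP) and 49141 to 158171 (P), and the lowest signal of any of these genes was 109 (Ucma). For 8 osteoblast and bone matrix genes NP replicate 2 was lowest (−0.32), and their summed signal ranged from 265693 to 352242 in NP and from 300255 to 347298 in P rats. Of the cartilage list, 1 of 8 P minus NP differences was positive and none passed. The ratio of 3′ to 5′ signal of the actin control, a sign of RNA length, ran from 1.848 to 2.385 over the 20 arrays and was 2.073 in NP replicate 2 and 2.385 in NP replicate 5. The part of these differences in the muscle signals was not tested.

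Between strains, 14 of the 72 tested member probe sets passed the F test of limma (19.4%), against 18.2% of all 18625 probe sets. Only 3 of those 14 were among the 40 striated probe sets. P against NP rats, the comparison of the parental strains, called 2 of 72 (5.36% of all probe sets), both higher in P rats (2.43% of all were higher), and neither was striated. NP.P against NP, which differ by the P segment, called 1 higher and 1 lower, against 2.3% of all (0.816% higher and 1.49% lower). P.NP against P, the reciprocal transfer, called 1 lower, against 0.231% of all (0.118% lower). The background comparison, the mean of P and P.NP less the mean of NP and NP.P, called 13 of 72 (7 higher and 6 lower) against 22.5% of all probe sets (11.1% higher and 11.3% lower). The difference between the 2 transfers (interaction) called none, against 0.317% of all, with 6 of 72 at an unadjusted p under 0.05 against 9.71% of all, and 0 under every alternative that was run. Without NP replicate 2 the F test called 24 of 72 (21.7% of all probe sets) and the background comparison 29 of 72 (23.9% of all). Without NP.P replicate 2 or NP.P replicate 3 the F test called 9 of 72 (14.5% and 16.4% of all). P minus NP and each transfer share a parental strain, so these comparisons are not independent.

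**Figure D3:**
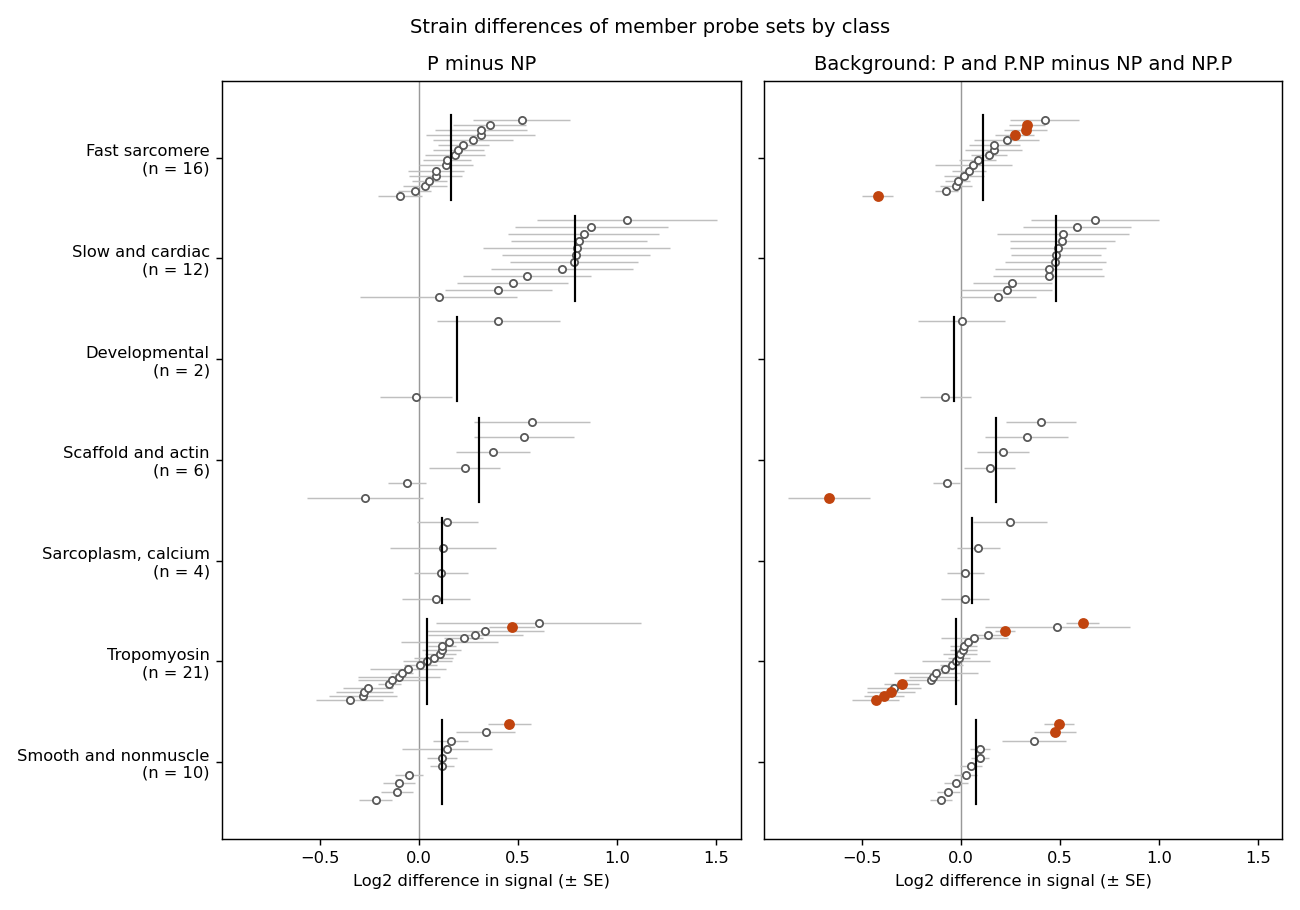
Log2 differences ± SE of 71 tested member probe sets by class, for P minus NP and for the P background minus the NP background; filled points passed at an adjusted p under 0.1, and the black line is the class median. All 12 slow points lie above 0 in both, with medians of 0.79 and 0.48 and none filled, and the filled points are 4 Myh1, 1 Neb, 6 tropomyosin and 2 smooth muscle and nonmuscle probe sets in the background comparison.

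Myh1, the heavy chain of type IIx fibres, was the fast gene called, and its probe sets moved in opposite directions. It is measured by 5 probe sets. Probe set 1377720_x_at gave 14227, 18558, 15866, 11766 and 11789 in NP rats, 12547, 12164, 12150, 14239 and 13093 in NP.P rats, 18921, 20751, 18118, 16179 and 15301 in P.NP rats and 14893, 21517, 15977, 16405 and 13818 in P rats. P.NP rats lay above all NP.P rats, and P and NP rats overlapped. The background difference was 0.33 ± 0.09 (SE), adjusted p = 0.0184 (limma). Probe sets 1377719_a_at and 1383161_a_at rose likewise, by 0.33 (adjusted p = 0.0452) and 0.27 (adjusted p = 0.0642), and 1383162_at had a difference of 0.08 (adjusted p = 0.592). The call of 1383161_a_at was lost without NP replicate 4 or 5 or without replicate 2 of P, NP.P or P.NP.

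The fifth, 1377114_at, gave 2796, 2791, 3264, 2902 and 3179 in NP rats, 2659, 3285, 3074, 3778 and 3748 in NP.P rats, 2082, 1932, 1777, 2308 and 1761 in P.NP rats and 2627, 2306, 3352, 3005 and 2743 in P rats. All 5 P.NP values lay below all NP and NP.P values, and the highest P.NP value equalled the lowest P value to within 2 signal units. It was lower on the P background, with a difference of −0.42 ± 0.08 (SE), adjusted p = 0.0011, and the P.NP minus P difference was −0.51 ± 0.11 (SE), adjusted p = 0.09998 (limma), just under the threshold. The P.NP minus P call was lost in 16 of the 20 fits that left out 1 array, and kept without P replicate 2, NP.P replicate 1, P.NP replicate 1 or P.NP replicate 4. The suffixes _x_at and _a_at mark probe sets that may also detect other transcripts, and the part of other transcripts in these signals was not tested. Over the 20 arrays, Pearson's r of 1377114_at with Ckm was −0.02 and that of 1377720_x_at was 0.50, neither of which passed (permutation, adjusted p = 0.979 and 0.152), and the other 3 Myh1 probe sets had r from 0.62 to 0.68.

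**Figure D4:**
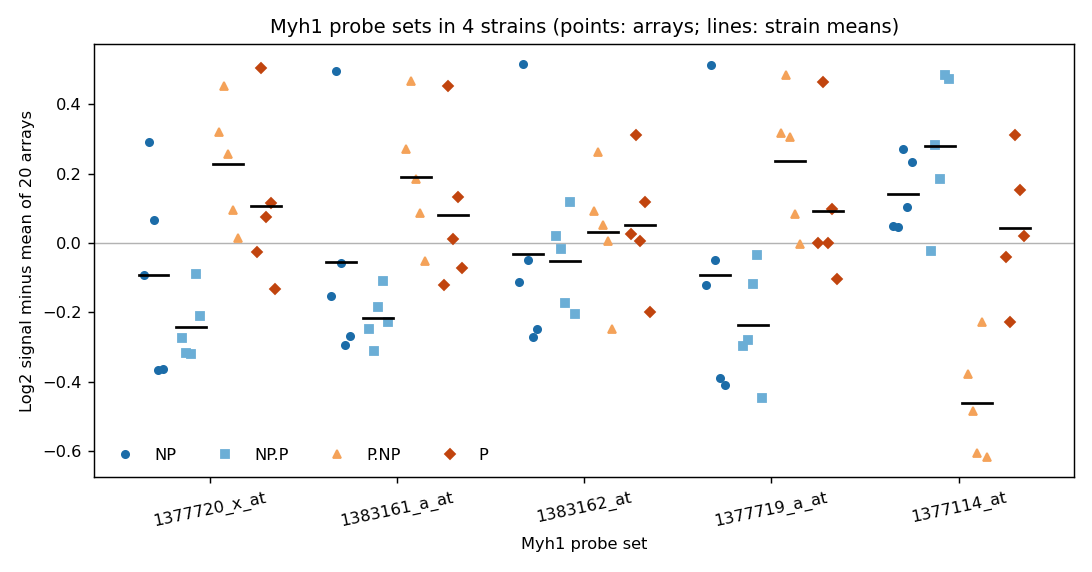
Log2 signal of the 5 Myh1 probe sets less their own mean over the 20 arrays, by strain; each point is 1 array. In 1377114_at the 5 P.NP arrays lie below all NP and NP.P arrays, and in 1377720_x_at the P.NP arrays lie above all NP.P arrays.

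Nebulin (Neb), the ruler of the thin filament, also had probe sets that parted. Probe set 1394666_at gave 1946, 2712, 1451, 1036 and 1120 in NP rats, 1807, 1899, 3033, 2967 and 1134 in NP.P rats, 962, 1243, 1025, 924 and 778 in P.NP rats and 777, 1913, 1559, 1362 and 1103 in P rats. P.NP rats lay between 778 and 1243, and the 4 strains overlapped. The background difference was −0.67 ± 0.21 (SE), adjusted p = 0.0341 (limma). Probe set 1381575_at gave 18284, 24332, 15773, 14842 and 10836 in NP rats, 20022, 17747, 19613, 21717 and 15720 in NP.P rats, 20785, 24285, 18660, 18421 and 16866 in P.NP rats and 14402, 26228, 18431, 20542 and 17529 in P rats. There the strains overlapped too, with a background difference of 0.15 ± 0.13 (SE), adjusted p = 0.478 (limma).

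Outside striated muscle genes the calls were in tropomyosins and in smooth muscle and nonmuscle proteins. Tpm1, a tropomyosin of muscle and other cells, at probe set 1395794_at gave 1111, 996, 1181, 1166 and 1116 in NP rats, 1077, 952, 1320, 1163 and 962 in NP.P rats, 1569, 1804, 1743, 1924 and 2211 in P.NP rats and 1879, 1808, 1390, 1379 and 1342 in P rats. Every rat of the P background (P and P.NP) lay above every rat of the NP background (NP and NP.P). The difference was 0.47 ± 0.12 (SE), adjusted p = 0.0256 for P minus NP and 0.62 ± 0.08 (SE), adjusted p = 3.23e-05 for the background (limma). The other Tpm1 probe sets did not pass in either comparison, and their r with Ckm ran from 0.95 (1370288_a_at) to −0.59 (1370287_a_at).

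Myh11, the smooth muscle myosin heavy chain, gave 782, 866, 853, 797 and 731 in NP rats, 779, 967, 880, 901 and 744 in NP.P rats, 1376, 1295, 1043, 1272 and 1190 in P.NP rats and 1019, 1243, 1123, 870 and 1321 in P rats. All P.NP arrays lay above all NP and NP.P arrays, and P replicate 4 reached down into the NP.P range. It was higher in P than in NP rats by 0.46 ± 0.11 (SE), adjusted p = 0.0184, and on the P background by 0.49 ± 0.08 (SE), adjusted p = 0.000155 (limma). Of 5 tested genes of a smooth muscle list, 2 were called higher on the P background, against 11.1% of all probe sets. They were smoothelin (Smtn, 0.26, adjusted p = 0.00154) and transgelin (Tagln, 0.31, adjusted p = 0.0355, limma). Smooth muscle actin (Acta2) had a difference of −0.05. Cnn1, Lmod1 and Myocd of that list were below the filter.

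Tpm2 at 1372219_at rose on the P background by 0.22 ± 0.05 (SE), adjusted p = 0.00446, and Actn1, a nonmuscle alpha-actinin, at 1398294_at rose by 0.48 ± 0.11 (SE), adjusted p = 0.00419 (limma). The other tested probe set of each gene was not called in this comparison. Tpm2 at 1392976_at, whose r with Ckm was 0.91, had a difference of −0.02. Actn1 at 1389189_at, the brighter of its probe sets, had 0.10 ± 0.05 (SE), adjusted p = 0.201 (limma). Tpm3, the tropomyosin of slow fibres and of nonmuscle cells, was called lower at 4 of 11 tested probe sets, 1398303_s_at (−0.43, adjusted p = 0.0187), 1370340_x_at (−0.39, adjusted p = 0.0128), 1371239_s_at (−0.30, adjusted p = 0.0252) and 1371184_x_at (−0.35, adjusted p = 0.0561). Differences over the 11 ran from −0.43 to 0.49, and none was called higher. Probe set 1398303_s_at gave 2580, 3115, 4596, 4729 and 3773 in NP rats, 3365, 2968, 2829, 2937 and 3947 in NP.P rats, 2576, 2311, 2606, 1984 and 1811 in P.NP rats and 2958, 2050, 3127, 3047 and 3402 in P rats. P.NP rats lay below all NP.P rats, and NP replicate 1 reached into the P.NP range. The call of 1371184_x_at was lost without P.NP replicate 4. A further Tpm3 probe set, 1376929_at, varied 7.42-fold over the arrays, gave 3566, 7467, 3017, 1888 and 1154 in NP rats, 1333, 2460, 3428, 3908 and 1179 in NP.P rats, 1682, 6702, 3373, 1895 and 2565 in P.NP rats and 1919, 6428, 8567, 5406 and 2493 in P rats, and had an r with Ckm of 0.69. Its NP arrays ran from the lowest of all to the next highest after P replicate 3, and its P minus NP difference was 0.61 ± 0.52 (SE), adjusted p = 0.608. The suffixes _s_at and _x_at again mark probe sets shared between transcripts. Actn1 at 1389189_at and Tpm3 at 1387918_at passed the F test alone (adjusted p 0.0787 and 0.0844).

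In NP.P against NP rats 2 members of this kind were called. Myh10, nonmuscle myosin IIB, gave 2226, 2497, 1980, 2134 and 2017 in NP rats and 2386, 2774, 2948, 2894 and 2726 in NP.P rats. Only NP.P replicate 1 lay within the NP range, and the difference was 0.34 ± 0.09 (SE), adjusted p = 0.0738 (limma). Tpm4 at 1371653_at, a nonmuscle tropomyosin, gave 14880, 14791, 15153, 14841 and 16326 in NP rats and 13729, 13019, 13280, 12405 and 13270 in NP.P rats. The groups did not overlap, and it fell by 0.21 on the log2 scale (adjusted p = 0.0876, limma). With 1 array left out at a time, both lost their call without NP replicate 1, 3, 4 or 5 or NP.P replicate 2, 3, 4 or 5 (8 of 20 fits), and Tpm4 also without P replicate 4 or 5 or any P.NP array (15 of 20).

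A list of 62 other skeletal muscle genes (excitation-contraction coupling, glycolysis of muscle, Z disc and M line proteins and myogenic factors) had 55 genes tested. Of these, 2 passed the F test (3.64%, against 18.2% of all probe sets), 1 was called in P against NP rats (1.82% against 5.36%) and 6 in the background comparison (10.9% against 22.5%). The called differences were all higher, and the median differences were 0.34 and 0.26. Each share was below that of all probe sets called in either direction. Of all probe sets, 2.43% were called higher in P against NP rats and 11.1% in the background comparison, the latter close to the 10.9% of the list. Caveolin 3 (Cav3), of the muscle membrane, was higher in P than in NP rats by 0.96 (adjusted p = 0.0898, limma). Sarcolipin (Sln), which restrains the calcium pump, was higher on the P background by 0.85 (adjusted p = 0.0165), the regulatory subunit Ppp1r3a of glycogen metabolism by 0.64 (0.0470), Klhl41 of the sarcomere by 0.55 (0.0766), the mitochondrial creatine kinase Ckmt2 by 0.46 (0.0499), phosphorylase kinase subunit Phka1 by 0.43 (0.0562) and muscle phosphofructokinase Pfkm by 0.42 (0.0642). NP replicate 5 was the lowest of the 20 arrays for 42 of the 55 genes and NP replicate 4 for 8, and P replicate 2 was the highest for 25 and NP replicate 2 for 21. With 1 array left out at a time, 0 to 17 of the 55 passed the F test, against 14.2% to 21.7% of all probe sets. The most passed without NP replicate 2 (21.7% of all).

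Ckm was used as the reference for genes that varied together over the 20 arrays. Pearson's r with Ckm passed at an adjusted p under 0.1 (permutation test with 100000 draws, Benjamini-Hochberg over 18624 probe sets) for 41 of 71 other members (57.7%) and for 12.2% of all probe sets. With strain means removed it passed for 40 of 71 (56.3%), against 15.1% of all. The signals of 1 array share its RNA and its scaling. Among striated members 34 of 39 passed, 14 of 16 fast probe sets (median r 0.84) and 10 of 12 slow probe sets (median r 0.60). With strain means removed 15 of 16 fast and 7 of 12 slow probe sets passed. Of the smooth muscle and nonmuscle class 0 of 10 passed by the same permutation test, and of the tropomyosins 7 of 21.

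Tnni2 was the member nearest to Ckm, with r = 0.97, Spearman's rho = 0.98, and r = 0.96 without NP replicates 2 and 5, the 2 arrays farthest from the median of Ckm. Tnnt3 followed with r = 0.96, rho = 0.95 and 0.94 without those arrays. Myh4 had r = 0.87, rho = 0.87 and 0.80, and Myh7 had r = 0.62, rho = 0.65 and 0.51 (permutation, adjusted p = 0.0472). Acta1 had r = 0.52 and did not pass (permutation, adjusted p = 0.126). The 10 genes outside the rule with the highest r were Aldoa (0.96), the muscle form of aldolase, Eno3 (0.94), the muscle enolase, the phosphate carrier Slc25a3 (0.95), and the respiratory chain and ATP synthase genes Uqcrfs1 (0.96), Cox6c (0.94), Cox7c (0.93), Atp5mf (0.93), Ndufs7 (0.93), Ndufa13 (0.93) and Ndufv2 (0.93). Each of the 10 had a permutation p of 1e-05, the smallest that 100000 draws can give.

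Of the other skeletal muscle list, 54 of 55 genes passed with a positive r and a median r of 0.79, and the exception was Sln (r = 0.48, permutation, adjusted p = 0.188). Median r was 0.43 for 4 tendon genes, 0.35 for 5 smooth muscle genes, 0.12 for 9 erythroid genes, 0.05 for 3 peripheral nerve genes and −0.03 for 7 adipocyte genes. It was −0.36 for 8 osteoblast and bone matrix genes and −0.47 for 8 cartilage genes. The bone genes ran from −0.66 (Phex) to 0.54 (Col1a1). Of these 8, 3 had a positive r and 2 passed, both negative. Of the 8 cartilage genes 1 had a positive r and 3 passed, all negative. Without NP replicates 2 and 5 the median r was −0.06 for the bone list and −0.35 for the cartilage list.

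**Figure D5:**
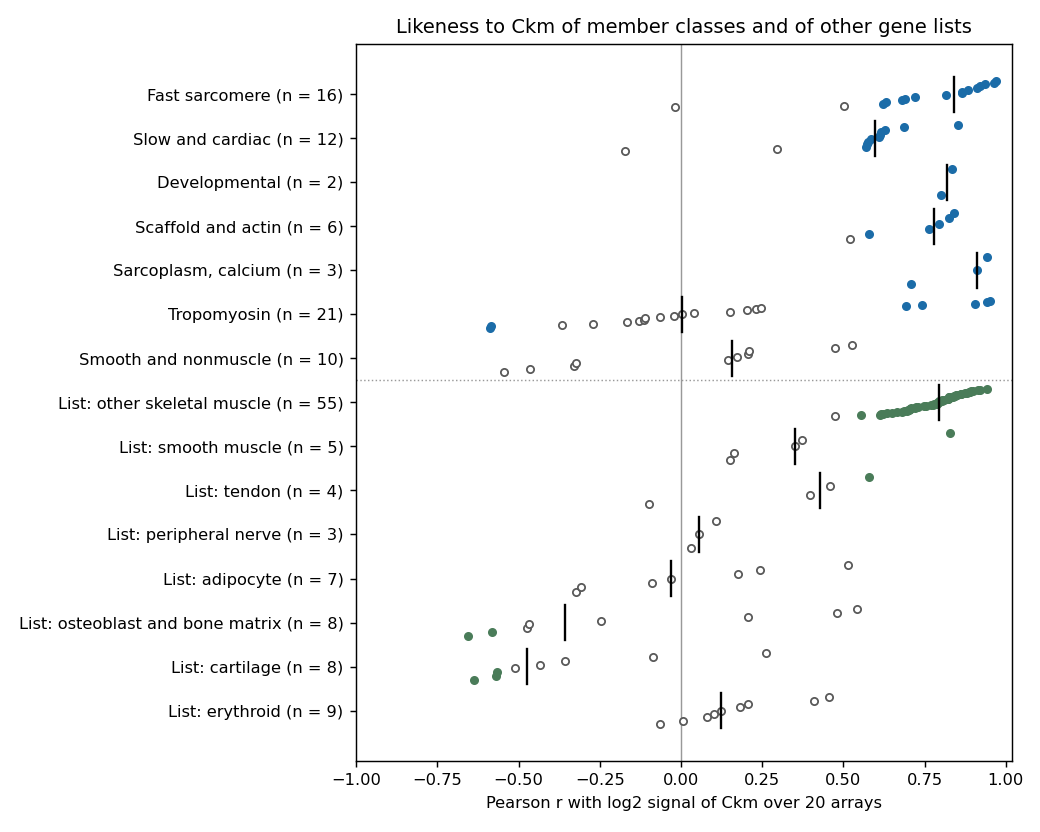
Pearson's r with Ckm over the 20 arrays for member probe sets by class and for 8 lists of other genes; filled points passed at an adjusted p under 0.1, and the line is the median. Fast members have a median of 0.84 and slow members of 0.60, the other skeletal muscle list sits at 0.79, and the cartilage list at −0.47.

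With each array's log2 Ckm signal as a covariate, 23 of 71 members passed the F test (23.9% of all probe sets did), 3 were called in P against NP rats (7.17% of all) and 23 in the background comparison (16 higher and 7 lower, 27.5% of all). Higher on the P background then were also Des (0.37, adjusted p = 0.0219), Myl2 (0.54, adjusted p = 0.0804), Actn2, the muscle alpha-actinin (0.29, adjusted p = 0.0924), and Ttn (0.18, adjusted p = 0.0591), the fast members Tnnt3 at 1397499_at (0.39, adjusted p = 0.0284), Mybpc2 at 1373697_at (0.19, adjusted p = 0.0733) and Myh4 (0.12, adjusted p = 0.07), and, outside striated muscle, Tpm1 at 1370287_a_at (0.15, adjusted p = 0.0326) and Myl12b, a nonmuscle light chain (0.10, adjusted p = 0.0492). Tpm3 at 1387918_at was then also called lower (−0.34, adjusted p = 0.0993). With the same covariate the P minus NP difference of Tnni2 went from 0.09 to −0.03, of Pvalb from 0.09 to −0.05, of Mb from 0.12 to −0.06 and of Myl2 at 1388293_at from 0.10 to −0.04, none of them called in either fit. Without NP replicate 2, the NP array with the most muscle signal, 12 of 72 members were called in P against NP rats, all higher (6.66% of all probe sets), and 5 of these were among the 12 slow probe sets, whose median difference became 1.05. Slow genes that then passed included Myh7 (1.09, adjusted p = 0.0674), Tnnt1 (1.15, adjusted p = 0.0747), Tnnc1, the slow calcium-binding troponin (1.03, adjusted p = 0.069), and Myl2 (1.16, adjusted p = 0.0885). NP replicates 4 and 5 were the NP arrays lowest for the slow genes, while for Ckm NP replicate 1 lay below NP replicate 4. Without replicates 4 and 5 (an alternative chosen after seeing the data), 1 of 72 was called in P against NP rats, against 3.79% of all probe sets. None was in the slow class, whose median difference became 0.28.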

How the data were processed

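Gene expression was measured in proximal femora of rats aged 4 weeks on 20 single-colour oligonucleotide arrays, 5 per strain, 1 animal per array, each sample's strain and number being taken from its title. The deposited values are linear signal intensities, which the authors computed with MAS5 per the labels; MAS5 adjusts for background and scales each array. The study's own tests used another normalization (RMA), which was not used here. Array medians ranged from 292 to 322, no arrays were identical, and the number of arrays limits the precision.

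The 57 control probe sets were left out, leaving 31042, of which 20826 had 1 gene symbol in the platform annotation, 436 several and 9780 none. A further 5 probe sets matched the gene rule with several symbols and were left out. Signals under 1 (190 of 620840) were set to 1 and log2 was taken. Probe sets whose mean log2 signal was below the 40th percentile (a signal of 170) were not tested, so a member that passed through 1 high group would be kept. A model with 4 strain means was fitted to all 18625 probe sets with limma 3.58.1 (R 4.3.3), with 16 residual degrees of freedom, and 5 contrasts and the F test over strains were adjusted by Benjamini-Hochberg over all probe sets, at 0.1. Likeness to Ckm, correlations with permutation p values and figures were computed with Python 3.11.15, numpy 2.4.6, pandas 2.3.3 and matplotlib 3.10.9. The fit and the correlation were tested on simulated data with known changes. The ratio, fold and score values given (3′ to 5′ ratio, highest to lowest signal, mean log2 deviation) were computed from the deposited intensities.

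The members and gene lists (other skeletal muscle, smooth muscle, tendon, peripheral nerve, adipocyte, osteoblast and bone matrix, cartilage, erythroid) were chosen with earlier results of these data known. Named genes are the main sarcomere, troponin and sarcoplasm genes at their probe set with the highest mean, every member or other muscle gene past the threshold, and the 10 genes outside the rule most like Ckm. Myl11, the current name of Mylpf, was put in the fast class after the files were seen, and a few further members are given as examples of their class, also chosen after their values were seen. Alternatives were no filter and a stricter one, quantile normalization, an offset before the log, robust and trended variances, a threshold of 0.05, fits of 2 strains, an unequal-variance test, the replicate number as a block, Ckm as a covariate, 1 probe set per gene, and leaving out each array.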

Additional observations from a re-analysis of the deposited data

Results flagged for a closer look

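Each strain's 5 values were examined for a single array standing apart, in 132 groups of 33 named member probe sets, and 4 groups had one. Chance alone marks about 1 in 20 groups. Actn1 at 1389189_at had a signal of 6108 in NP.P replicate 4 against a group median of 7687, and Actn1 at 1398294_at had 1538 in P replicate 2 against 1378. Tpm3 at 1398303_s_at had 2050 in P replicate 2 against 3047, and Tpm4 at 1371653_at had 16326 in NP replicate 5 against 14880. None is in a gene used mainly by striated muscle, and no cause was tested.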

How the results depend on the processing

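No called difference of a member reversed its sign under any alternative. Among differences that were not called, P minus NP turned negative for several members with Ckm as a covariate. They included Tnni2 (−0.03), Pvalb (−0.05), Mb (−0.06) and Myl2 at 1388293_at (−0.04). In that fit it was also negative for the fast members Myl1 (−0.07), Tnnc2 (−0.06) and Myl11 (−0.01). In the main fit 14 of 16 fast probe sets were positive. The slow class median of NP.P minus NP went from 0.21 to −0.04 with the covariate. That slow class median was also −0.02 without NP replicate 4 alone, and −0.28 without NP replicates 4 and 5. With the main settings 14 member probe sets passed the F test, 2 were called in P minus NP, 2 in NP.P minus NP, 1 in P.NP minus P, 13 in the background comparison and 0 in the interaction, and 2 genes of the other skeletal muscle list passed the F test. The counts moved as follows, with the share of all probe sets called in the same fit in brackets, where it was counted. Without the filter on low signals the F test called 7 (7.65%), NP.P minus NP 0 (0.425%), P.NP minus P 0 (0.058%) and the muscle list 0. Quantile normalization called 1 of the muscle list (F test, 17.7%). Robust variances called 0 in P.NP minus P (0.209%) and 1 of the muscle list (F test, 17.9%). At a threshold of 0.05 the F test called 7, P.NP minus P 0 and NP.P minus NP 0. Fits of the 2 strains alone, and the methods' unequal-variance test, called 0 for either congenic strain against its parent (NP.P minus NP 0, P.NP minus P 0). With Ckm as a covariate the F test called 23 (23.9%), the background comparison 23 (27.5%) and the muscle list 11. With the highest-mean probe set of each of 44 genes the F test called 5 (18.2%), P minus NP 1 (5.36%), P.NP minus P 0 (0.231%) and the background comparison 2 (22.5%). Without NP replicates 4 and 5, chosen after seeing the data, the F test called 8 (16.5%) and P minus NP 1 (3.79%). The same fit called 0 in NP.P minus NP (0.918%), 0 in P.NP minus P (0.188%) and 0 of the muscle list.

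Leaving out 1 array at a time gave 9 to 24 calls in the F test, 2 to 12 in P minus NP, 0 to 4 in NP.P minus NP, 0 to 1 in P.NP minus P, 12 to 29 in the background comparison, 0 in the interaction and 0 to 17 of the muscle list. Over all probe sets the shares called in these fits ran from 14.2% to 21.7% in the F test and from 4.04% to 6.66% in P minus NP. They ran from 0.639% to 2.83% in NP.P minus NP and from 0.0859% to 0.381% in P.NP minus P. For the background comparison they ran from 19.3% to 23.9%, and for the interaction from 0.113% to 0.585%. The highest member or list count of each, except in P.NP minus P and the interaction, came without NP replicate 2. The F test count of members was lowest without NP.P replicate 2 or NP.P replicate 3. The P.NP minus P call of Myh1 (1377114_at) held only without P replicate 2, NP.P replicate 1, P.NP replicate 1 or P.NP replicate 4. In NP.P minus NP, Tpm4 lost its call in 15 of 20 and Myh10 in 8 of 20 such fits. In the background comparison, Myh1 (1383161_a_at) lost its call without NP replicate 4, NP replicate 5, P replicate 2, NP.P replicate 2 or P.NP replicate 2, and Tpm3 (1371184_x_at) without P.NP replicate 4. The cause was not tested.

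The replicate numbers were not taken to pair the samples, because they are not said to pair animals. Deviations correlated above 0.1 in 5 of 30 same-numbered pairs and in 11 of 120 pairs of different number. The mean r was 0.046 (−0.089 to 0.333) over the same-numbered pairs and −0.011 over the others. Of the 20 arrays, 9 correlated best with an array of their own number. The study's methods state a balanced design, and whether arrays of the same number were processed together was not tested. Replicate 2 of NP, P and P.NP correlated at 0.333 (NP with P), 0.299 (NP with P.NP) and 0.262 (P with P.NP). With the replicate block the F test called 16, P minus NP 2, NP.P minus NP 2, P.NP minus P 0, the background comparison 17, the interaction 0 and the muscle list 5, and in NP.P minus NP Myh3 was called (adjusted p = 0.0919, limma) and Tpm4 (adjusted p = 0.104) was not.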

Other observations

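Probe sets that match several genes were kept apart from the members. Of the 5, 1370971_at carries the symbols of the fast and perinatal myosins Myh2, Myh1 and Myh8 and had a mean signal of 16835 over the 20 arrays. Probe set 1398248_s_at carries those of Myh7 and Myh6 and had a mean of 5303.

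Genes of other cell types in the femur RNA are given as counts, with no test between lists. In the background comparison of limma, 9 of 9 erythroid genes were lower on the P background (median −0.24), 4 of 7 adipocyte genes were called (1 higher and 3 lower), 2 of 3 peripheral nerve genes were lower, 2 of 8 osteoblast and bone matrix genes were higher, and 0 of 4 tendon and 0 of 8 cartilage genes were called, against 22.5% of all probe sets.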
